A study of Rattus norvegicus with 6 samples.

Results

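The genes described here are the nuclear-encoded respiratory chain genes of rat primary beta cells, which make and release insulin in the pancreatic islet. They were chosen by name alone from the deposited transcript assembly. A gene model was taken when its name, with case ignored, began with Nduf, Uqcr, Atp5 or Cox followed by a digit from 4 to 8, or was Sdha, Sdhb, Sdhc, Sdhd, Cycs or Cyc1. The rule found 101 gene models with 96 names among 24570 gene models, and 96 of the 101 passed the filter on low reads, among 15975 genes tested. Of the 101 models, 11 have an exon and no intron and are kept apart below, and 3 carry the name prefix but encode other proteins. The study set cells treated with an siRNA to Nova1, a protein that binds RNA and regulates alternative splicing, against cells treated with a control siRNA. Both groups were sorted rat beta cells that received 30 nM of siRNA for 16 h and then recovered for 48 h, with 3 Nova1 knockdown libraries and 3 control libraries in 3 batches that each gave 1 library of either kind. RNA had an integrity number of at least 7.5. The labels do not tie the batches to separate animals, and p-values therefore reflect the spread of these 3 batches, which may be technical.

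Electrons from NADH enter the chain at complex I and electrons from succinate at complex II. Both complexes pass them through ubiquinone to complex III, cytochrome c carries them to complex IV, which reduces oxygen, and ATP synthase (complex V) uses the proton gradient that the chain builds. In beta cells, ATP made from glucose closes potassium channels, and the calcium entry that follows releases insulin. A small set of subunits is encoded by mitochondrial DNA, and all other subunits are encoded in the nucleus, translated in the cytosol and imported.

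The reads assigned to transcripts numbered 130251486, 95394043 and 146453308 in knockdown libraries of batches 1, 2 and 3, against 292432076, 122637234 and 199930608 in control libraries. Nova1, the targeted gene, had 7.76, 10.2 and 9.43 CPM (reads relative to the scaled library size) in knockdown libraries, against 20.6, 21.5 and 17.4 CPM in control libraries. The groups did not overlap, and Nova1 fell by 1.12 on the log2 scale (SE 0.111, adjusted p = 0.038 in limma). Without batch 1 its adjusted p was 0.156, and without batch 2 it was 0.159. At an adjusted p below 0.05, 82 of all genes rose and 192 fell. Beta cell markers summed higher than the markers of any other cell type listed below in every library, mainly through Ins1 and Ins2. The 16 tested markers summed to between 102300 and 239600 CPM in knockdown libraries and between 139900 and 248300 CPM in control libraries, and the lowest value of each group was in batch 2. All values come from bulk RNA, in which fewer cells of a type and less RNA per cell cannot be told apart.

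Respiratory chain RNA was slightly lower in knockdown cells across nearly the whole gene set, by amounts that for single genes mostly did not pass the test. The log2 difference was below 0 for 93 of 96 tested genes and above 0 for 3, which were Cox8b (0.26), Ndufa4l2 (0.21) and Atp5s (0.09), none of them past the test. The median was -0.21 (interquartile range -0.28 to -0.16), against 0.003 for all genes tested. Cox5a, a subunit of complex IV, fell and was the 1 gene that passed at an adjusted p below 0.05, where 1.2% of all genes tested were called lower. At an unadjusted p below 0.05, 53 genes (55.2%) were lower, against 11.5% of all genes tested. In 71 genes (74.0%) the knockdown library was the lower of its batch in all 3 batches, against 24.3% of all genes tested. The fit has 2 residual degrees of freedom per gene and all genes were measured in the same 6 libraries, so these counts describe the set and are not a test of it.

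The shift was carried unequally by the batches. In batch 1, 75 of the 96 genes were lower in the knockdown library, with a median log2 difference of -0.07. In batches 2 and 3, 91 of the 96 genes were lower in the knockdown library, with medians of -0.42 and -0.19. The spread between batches was wide beside these differences. Every knockdown library lay below every control library in CPM for 2 genes, Ndufs4 and Ndufs1 (2.08%), against 4.1% of all genes tested. The 96 genes' median was -0.29 without batch 1, -0.14 without batch 2 and -0.22 without batch 3.

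**Figure D1:**
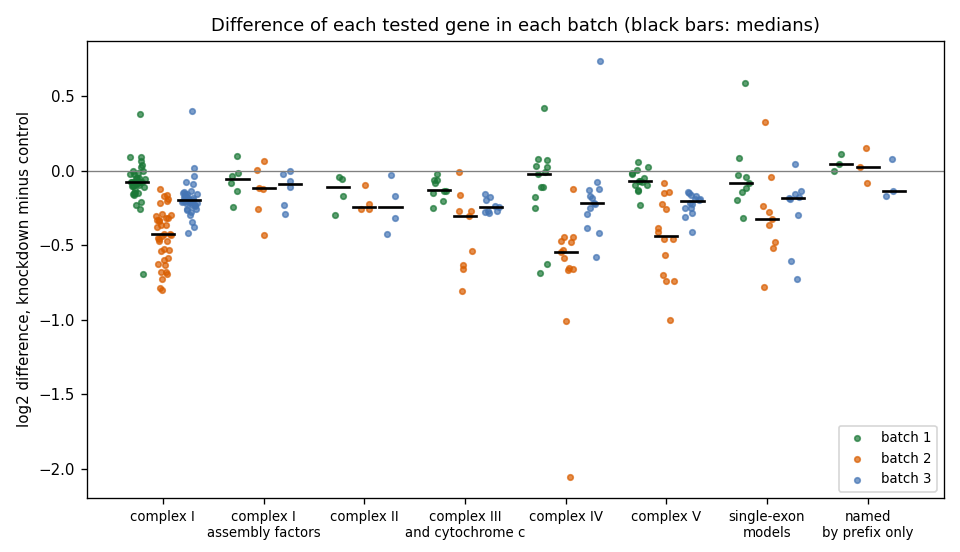
Log2 difference (knockdown minus control, vertical axis) of each tested gene in each batch, grouped by complex along the horizontal axis, with black bars at the medians and a grey line at 0. Batch 2 points sit lowest in complexes I, III, IV and V, where their medians are -0.43, -0.30, -0.54 and -0.44, and batch 1 points sit closest to 0.

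Upstream sequences of 5 genes are shown with the motifs of factors known from mammalian nuclear respiratory genes. Motifs were searched on both strands in windows of 250 bases before to 50 bases after the RefSeq start on GRCr8, and 79 of 90 genes with introns had a window. The core of the NRF1 motif (GCATGCGC) was in 12 of the 79 windows (15.2%), against 2.47% of all 33469 windows and 3.32% of 19005 coding genes. The ETS motif (CCGGAAGT), the letters bound by GABP among other ETS factors, was in 8 windows (10.1%), against 3.81% of all windows and 5.12% of coding genes. The YY1 motif (AAGATGGC) was in 16 windows (20.3%), against 3.17% of all windows and 4.08% of coding genes. The TATA box (TATAAA) was in 5 windows (6.33%), against 14.2% of all windows and 14.0% of coding genes. A match describes letters in a window and is neither a site nor a cause. The sequences below run 5′ to 3′ over the 250 bases before the start, in lower case with the motifs in capitals. Cox5a is shown as the gene that passed the test, and Cox5b and Ndufa13 as genes with a large difference and an ETS match. Cycs is shown for its NRF1 match, and Atp5i because its window holds both NRF1 and YY1 matches. The windows of Ndufa6, Uqcrc1 and Atp5o also hold both and are not shown. Cox5b, Ndufa13, Cycs and Atp5i were thus chosen for having a match. Ndufa5, Cox7a2l and Sdhd, whose differences are given below, held none of these motifs and are not shown. Atp5l, with a log2 difference of -0.45, held an NRF1 match and a TATA box and is not shown either. The NRF1 letters of Atp5i match on both strands in overlapping positions, and no searched motif lies in the Cox5a stretch.
Cox5a (chr8:66818034-66818283, plus strand): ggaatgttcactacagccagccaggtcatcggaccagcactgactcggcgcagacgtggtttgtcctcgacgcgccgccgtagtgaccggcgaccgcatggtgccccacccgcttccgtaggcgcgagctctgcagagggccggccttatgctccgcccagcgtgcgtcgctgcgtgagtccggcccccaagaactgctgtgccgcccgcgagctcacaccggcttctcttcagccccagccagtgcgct
Cox5b (chr9:46417587-46417836, plus strand): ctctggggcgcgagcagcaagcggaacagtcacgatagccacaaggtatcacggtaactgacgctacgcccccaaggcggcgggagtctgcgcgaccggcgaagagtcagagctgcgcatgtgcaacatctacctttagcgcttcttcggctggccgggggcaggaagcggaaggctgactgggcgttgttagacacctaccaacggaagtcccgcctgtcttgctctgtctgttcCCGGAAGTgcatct
Ndufa13 (chr16:19560276-19560525, plus strand): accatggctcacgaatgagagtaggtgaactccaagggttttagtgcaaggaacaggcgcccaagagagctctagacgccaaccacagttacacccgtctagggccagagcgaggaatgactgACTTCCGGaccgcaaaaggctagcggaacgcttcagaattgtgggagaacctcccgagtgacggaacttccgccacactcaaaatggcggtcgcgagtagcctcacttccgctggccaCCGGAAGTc
Cycs (chr4:80984768-80985017, minus strand): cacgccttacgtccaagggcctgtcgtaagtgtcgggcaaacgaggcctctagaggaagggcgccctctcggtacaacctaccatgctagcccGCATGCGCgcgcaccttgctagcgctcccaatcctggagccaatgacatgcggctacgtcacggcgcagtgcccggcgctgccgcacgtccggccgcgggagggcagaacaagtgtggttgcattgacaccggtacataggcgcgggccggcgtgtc
Atp5i (chr14:1464610-1464859, plus strand): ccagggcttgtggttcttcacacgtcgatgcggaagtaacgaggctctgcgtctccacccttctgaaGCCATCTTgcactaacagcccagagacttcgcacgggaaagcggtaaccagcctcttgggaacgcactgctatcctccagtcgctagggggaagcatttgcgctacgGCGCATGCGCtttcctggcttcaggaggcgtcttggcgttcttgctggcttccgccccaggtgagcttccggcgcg

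The levels of the genes, compared per length in RPKM (reads relative to transcript length and library size, as deposited), differed by complex. Median RPKM over the 6 libraries was 205.7 for complex V, 129 for complex IV, 79.7 for complex III with cytochrome c, 68.0 for complex I and 67.1 for complex II. It was 7.87 for the complex I assembly factors, which act on the complex while it is built and are not kept in it. The most abundant was Atp5b, the catalytic subunit of the ATP synthase head, at 453 ± 76.9 RPKM in knockdown libraries and 492 ± 94.9 RPKM in control libraries (SD, n = 3 each). Cox8a, a small membrane subunit of complex IV, followed at 374 ± 156 RPKM in knockdown libraries and 443 ± 152 RPKM in control libraries. Together the 101 models took 0.822%, 0.531% and 0.815% of assigned reads in knockdown libraries 1, 2 and 3, against 0.866%, 0.625% and 0.911% in control libraries. The knockdown share was the lower in each batch, while the groups overlapped, and both batch 2 libraries were below all others.

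**Figure D2:**
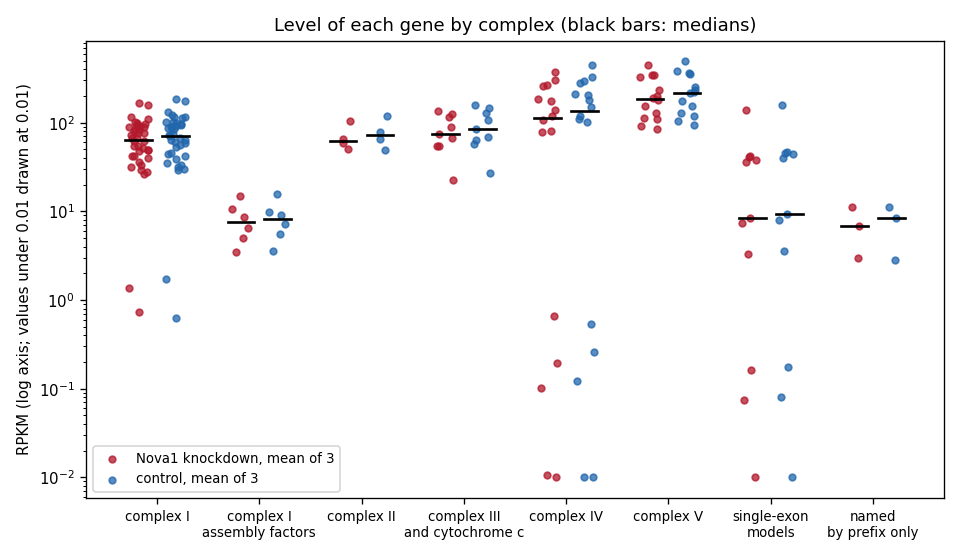
Mean RPKM of each gene (log axis, values under 0.01 drawn at 0.01) in Nova1 knockdown and control libraries (n = 3 each), grouped by complex, with black bars at the medians. Subunits of complexes IV and V sit highest, the assembly factors near 10 RPKM, and the muscle and testis forms of complex IV subunits below 1 RPKM.

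Complex I, which oxidises NADH, had 38 tested subunit genes, of which 37 had log2 differences below 0. None passed at an adjusted p below 0.05 in limma, and the median was -0.20. At an unadjusted p below 0.05, 22 (57.9%) were lower, against 11.5% of all genes tested. The 7 tested core subunits, which hold the flavin and the iron-sulfur clusters, had a median of -0.18. All 7 were lower in the knockdown library of all 3 batches, against 24.3% of all genes tested. Ndufs1, a large iron-sulfur subunit of the NADH-oxidising arm, had 115.0, 115.5 and 109.6 CPM in knockdown libraries, against 127.6, 125.5 and 115.6 CPM in control libraries. The groups were close but did not overlap, with a log2 difference of -0.12 (SE 0.045, adjusted p = 0.20). Ndufv1, which binds NADH and the flavin, had 65.0, 40.9 and 62.6 CPM in knockdown libraries, against 72.2, 46.0 and 72.6 CPM in control libraries. Both batch 2 libraries were low and the groups overlapped, with a log2 difference of -0.18 (SE 0.047, adjusted p = 0.11). Ndufs8, also an iron-sulfur subunit, had the lowest difference of the core, at -0.37 (SE 0.082, adjusted p = 0.089), and was named after its value was seen.

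Among the accessory subunits of complex I, which surround the core, 30 of 31 had log2 differences below 0, with a median of -0.22. In all 3 batches 23 (74.2%) were lower, against 24.3% of all genes tested. Of those with at least 10 RPKM, the lowest differences were those of Ndufa5 and Ndufa13. Ndufa5 had 28.2, 12.7 and 27.8 CPM in knockdown libraries, against 33.0, 21.0 and 37.1 CPM in control libraries. The knockdown library was the lower in each batch and the groups overlapped, with a log2 difference of -0.43 (SE 0.098, adjusted p = 0.095). Ndufa13, also described as a cell death regulator under the name GRIM-19, had 55.6, 21.2 and 49.9 CPM in knockdown libraries, against 66.5, 34.0 and 63.1 CPM in control libraries. Its batch 2 libraries were again the low ones, and the log2 difference was -0.40 (SE 0.089, adjusted p = 0.088). Ndufs4, an accessory subunit whose loss causes Leigh syndrome in humans, had 49.8, 43.2 and 48.9 CPM in knockdown libraries, against 53.5, 54.6 and 54.9 CPM in control libraries. The groups did not overlap, and the log2 difference was -0.20 (SE 0.062, adjusted p = 0.15).

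Ndufa10 and Ndufa8, further accessory subunits, were nearest to no difference among complex I genes of at least 10 RPKM, at log2 differences of -0.04 (SE 0.058, adjusted p = 0.73) and -0.06 (SE 0.068, adjusted p = 0.61). Ndufa10 had 63.3, 44.2 and 62.4 CPM in knockdown libraries, against 62.3, 49.5 and 61.7 CPM in control libraries, so that only its batch 2 knockdown library was the lower of its pair. The most abundant complex I names were Ndufa4, since assigned to complex IV by other work, at 165 ± 37.3 RPKM in knockdown libraries and 183 ± 23.5 RPKM in control libraries, and Ndufa1, at 158 ± 66.6 RPKM in knockdown libraries and 176 ± 55.5 RPKM in control libraries (SD, n = 3 each). Their log2 differences were -0.22 (SE 0.082, adjusted p = 0.19) and -0.24 (SE 0.10, adjusted p = 0.23). Ndufs6 and Ndufa4l2, at 1.56 and 0.68 RPKM over the 6 libraries, were the 2 subunit models of complex I under 10 RPKM. The Ndufs6 model holds a 352-nt transcript of 2 exons between 45600795 and 45601209 of chromosome 2. Whether this short model covers the whole gene was not tested, so its value may not be the level of Ndufs6. The 6 assembly factors had a median of -0.10, with 3 of them lower in all 3 batches. Ndufaf3 was at -0.08 (SE 0.11, adjusted p = 0.66), and Ndufaf7, a mitochondrial methyltransferase, at -0.03 (SE 0.056, adjusted p = 0.75).

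Complex II, succinate dehydrogenase, also works in the tricarboxylic acid cycle and is encoded by the nucleus alone. Its 4 genes were lower in the knockdown library of all 3 batches, against 24.3% of all genes tested. The median log2 difference was -0.20, and none passed at an adjusted p below 0.05. Sdhd, a membrane anchor, had 96.3, 51.1 and 96.9 CPM in knockdown libraries, against 118, 60.9 and 129.8 CPM in control libraries. The groups overlapped through batch 2, and the log2 difference was -0.33 (SE 0.054, adjusted p = 0.058). Sdhc, the other anchor, had 148, 76.0 and 143 CPM in knockdown libraries, against 166, 88.8 and 178 CPM in control libraries. Its log2 difference was -0.24 (SE 0.051, adjusted p = 0.086). Sdhb, the iron-sulfur subunit, was at -0.15 (SE 0.058, adjusted p = 0.19), and Sdha, the flavoprotein that oxidises succinate, at -0.05 (SE 0.045, adjusted p = 0.50). Sdha had 137, 106 and 134 CPM in knockdown libraries, against 141, 113 and 137 CPM in control libraries.

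All 9 genes of complex III and cytochrome c were lower in the knockdown library of each batch, against 24.3% of all genes tested. The median log2 difference was -0.26, and none passed at an adjusted p below 0.05. At an unadjusted p below 0.05, 7 (77.8%) were lower, against 11.5% of all genes tested. Cycs on chromosome 4, the soluble carrier cytochrome c, had 185, 132 and 203 CPM in knockdown libraries, against 219.6, 158 and 246 CPM in control libraries. Its differences were much alike in the 3 batches, at -0.25, -0.27 and -0.28, and averaged -0.26 (SE 0.043, adjusted p = 0.058). Cyc1, cytochrome c1, had 85.6, 50.7 and 85.9 CPM in knockdown libraries, against 98.4, 62.5 and 101 CPM in control libraries. The knockdown library was the lower in 3 of 3 batches, and the log2 difference was -0.24 (SE 0.048, adjusted p = 0.073). Uqcrfs1, the Rieske iron-sulfur protein, was at -0.22 (SE 0.051, adjusted p = 0.096). Among small subunits, Uqcrq was at -0.35 (SE 0.14, adjusted p = 0.20), and Uqcrb on chromosome 7 was at -0.30 (SE 0.11, adjusted p = 0.19). The core proteins Uqcrc1 and Uqcrc2 were at -0.14 (SE 0.051, adjusted p = 0.19) and -0.11 (SE 0.053, adjusted p = 0.29). Uqcrh, the hinge protein, was the second most abundant after Cycs, at 126 ± 48.2 RPKM in knockdown libraries and 147 ± 43.7 RPKM in control libraries (SD, n = 3 each), with a log2 difference of -0.29 (SE 0.085, adjusted p = 0.13).

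Cox5a, a matrix-side subunit of complex IV on chromosome 8 between 62075284 and 62087001 of Rnor_5.0 (plus strand), had 54.7, 30.4 and 73.3 CPM in knockdown libraries, against 84.4, 47.9 and 98.1 CPM in control libraries. The knockdown library was the lower of every batch, while the spread between batches left the groups overlapping. It fell by 0.56 on the log2 scale (SE 0.065, adjusted p = 0.042 in limma), a change of -32.2%. The batch differences were -0.63, -0.66 and -0.42. Its adjusted p was 0.19 without batch 1, 0.16 without batch 2 and 0.037 without batch 3. It was 0.050 when libraries were scaled by their totals alone, 0.15 in limma-trend on log2(RPKM + 1) and 1.00 without the batch block.

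Cox5b, the zinc-binding matrix-side subunit on chromosome 9 between 42912040 and 42914547 of Rnor_5.0 (plus strand), had the lowest log2 difference of all 96 genes. It had 81.0, 39.7 and 77.6 CPM in knockdown libraries, against 130.0, 79.8 and 87.9 CPM in control libraries. Batches 1 and 2 differed by -0.68 and -1.01 and batch 3 by -0.18, and with that spread the difference of -0.61 (SE 0.15) did not pass (adjusted p = 0.11). Without batch 3 it passed, at an adjusted p of 0.037. Cox7a2l, which joins complexes III and IV into supercomplexes, had 110.1, 53.6 and 128 CPM in knockdown libraries, against 131, 74.3 and 167 CPM in control libraries. Its log2 difference was -0.36 (SE 0.059, adjusted p = 0.056), lower in 3 of 3 batches.

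**Figure D3:**
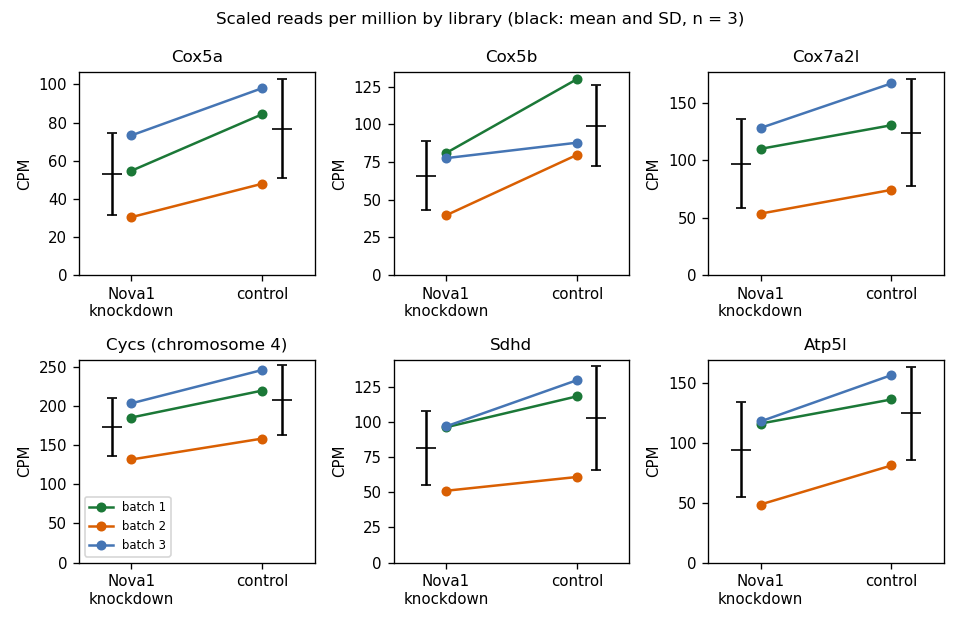
Reads relative to the scaled library size (CPM, vertical axis from 0) of Cox5a, Cox5b, Cox7a2l, Cycs, Sdhd and Atp5l in the knockdown and control library of each batch (coloured lines), with mean and SD (n = 3) in black. Every line runs higher on the control side, and the batch 2 line lies lowest in all 6 panels.

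Of the 13 tested genes of complex IV, 12 had log2 differences below 0, with a median of -0.31. In all 3 batches 8 (61.5%) were lower, against 24.3% of all genes tested. The batch medians were -0.02, -0.54 and -0.21, and the median was -0.13 without batch 2 and -0.41 without batch 1. Cox8a was at -0.33 (SE 0.079, adjusted p = 0.10), Cox6a1 at -0.31 (SE 0.11, adjusted p = 0.17) and Cox4i1 at -0.23 (SE 0.087, adjusted p = 0.19). Cox6b1, Cox7a2, Cox7c and Cox7b, all small subunits, lay between -0.20 and -0.18, with adjusted p-values of 0.37, 0.34, 0.32 and 0.31. In batch 1 their differences were 0.08, 0.03, -0.01 and 0.03, and all 4 were lower in the knockdown library of batches 2 and 3.

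Several complex IV subunits exist in tissue forms, and the ubiquitous form made up nearly all RNA. As shares of the summed RPKM of a set, Cox4i1 held 99.96% in knockdown and 99.96% in control libraries beside Cox4i2, a lung and hypoxia form. Cox6a1 held 99.90 ± 0.049% in knockdown and 99.87 ± 0.025% in control libraries beside the muscle form Cox6a2. Cox8a held 99.84 ± 0.074% in knockdown and 99.89 ± 0.073% in control libraries beside the muscle form Cox8b. In these 3 sets the groups differed by less than the larger of their SDs. The testis form Cox8c was listed at 0 in all 6 libraries, and the testis form Cox6b2 in all but knockdown library 1 and control library 1. No model was named Cox7a1, so Cox7a2 was set beside Cox7a2l alone, the supercomplex factor described above and not a tissue form. Cox7a2l held 37.6 ± 3.70% of the set in knockdown and 40.2 ± 3.17% in control libraries. Ndufa4l2, a hypoxia-induced relative of Ndufa4, took 0.449 ± 0.047% of their set in knockdown and 0.343 ± 0.058% in control libraries, higher in the knockdown library of each batch. It had 0.683 ± 0.153 CPM in knockdown and 0.606 ± 0.055 CPM in control libraries, and its log2 difference of 0.21 (SE 0.22, adjusted p = 0.58) did not pass.

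Complex V had 14 tested genes, all with log2 differences below 0, a median of -0.24 and no gene past an adjusted p of 0.05. They ran from -0.45 to -0.06. In all 3 batches 11 (78.6%) were lower, against 24.3% of all genes tested. At an unadjusted p below 0.05, 10 (71.4%) were lower, against 11.5% of all genes tested. Atp5l, subunit g of the membrane part, had 116, 48.6 and 118 CPM in knockdown libraries, against 137, 81.3 and 157 CPM in control libraries. Each knockdown library was the lower of its batch, and the log2 difference was -0.45 (SE 0.10, adjusted p = 0.091). Atp5i, subunit e beside it at the interface of ATP synthase dimers, had 52.8, 16.3 and 47.3 CPM in knockdown libraries, against 54.7, 32.6 and 53.2 CPM in control libraries. Its difference of -0.35 (SE 0.18, adjusted p = 0.30) lay mostly in batch 2, at -0.998, against -0.05 and -0.17 in batches 1 and 3. Among the subunits of the catalytic head, Atp5b was at -0.16 (SE 0.046, adjusted p = 0.12) and Atp5a1 at -0.14 (SE 0.047, adjusted p = 0.17). Atp5f1, the stalk subunit b, had 370.0, 315 and 370 CPM in knockdown libraries, against 354, 333 and 414 CPM in control libraries, a log2 difference of -0.06 (SE 0.059, adjusted p = 0.56). Its model holds transcripts at 227987897 to 227998362 and at 227830382 to 227841514 of chromosome 2, with the same internal exon lengths. Their mean shares of its RPKM were 47.8% and 48.7% in knockdown and 49.9% and 49.4% in control libraries. The Atp5f1 values may thus sum copies and are uncertain. The 3 genes for the membrane ring, which encode the same mature protein, are given by their share of the summed RPKM of the 3. Atp5g1 held 43.5 ± 1.15% in knockdown and 44.9 ± 1.78% in control libraries, Atp5g2 25.9 ± 1.54% in knockdown and 25.7 ± 1.21% in control libraries, and ATP5G3 30.6 ± 0.855% in knockdown and 29.4 ± 1.03% in control libraries. Within batches the Atp5g1 share was the lower and the ATP5G3 share the higher in all 3 knockdown libraries, and these shares were not tested.

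Of the 11 models without an intron, 9 were tested, and all 9 had log2 differences below 0 (median -0.20). They include copies of Cycs, Ndufb4, Ndufs5, Ndufv3 and Uqcrb on other chromosomes, and reads of near-identical copies can be divided between models, so their values are uncertain. Atp5h and Uqcr10 are also among them. Without these models the median of the other 87 genes was -0.22, and Cox5a was still the 1 gene called. The 3 genes that carry the prefix but encode other proteins (Cox4nb, Atp5s and Atp5sl) had a median of -0.03, and none was lower in all 3 batches. Models below the filter on low reads were Cox4i2, Cox6b2, Cox8c, Ndufb3l and Cox6c-ps1.

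Transcript length moved with the result. The 96 genes have a median main transcript of 629.5 nt, against 2129 nt for all genes tested, and the median difference over all genes was lower in the shorter length ranges. Up to 500 nt, the median log2 difference was -0.26 for 30 respiratory chain genes and -0.14 for all 977 genes. Over 500 and up to 750 nt, it was -0.23 for 29 respiratory chain genes and -0.12 for all 957 genes. Over 1000 and up to 1500 nt it was -0.18 for 14 respiratory chain genes and -0.05 for all 2363 genes, and over 1500 and up to 2500 nt it was -0.14 for 13 and -0.01 for all 3837 genes. Over 750 and up to 1000 nt the medians were closest, at -0.15 for 9 respiratory chain genes and -0.11 for all 1019 genes. In each of these 5 ranges the median of the respiratory chain genes lay below that of all genes of like length, and these gaps were not tested. In batch 2, all genes of up to 500 nt had a median of -0.42 and the respiratory chain genes among them -0.56, against 0.02 and -0.05 in batch 1. Across genes, which are not independent replicates, Spearman's correlation of length with the log2 difference was 0.49 over the 96 genes and 0.32 over all genes. In batches 1, 2 and 3 it was -0.08, 0.65 and 0.17 over the 96 genes.

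With a smooth trend on transcript length removed from each library, the median of the 96 genes was -0.11, against 0.005 for all genes, and 87 of the 96 remained below 0. The batch medians were then -0.09, -0.15 and -0.09. In that fit 5 of the 96 genes passed as lower, where 2.62% of all genes tested were called lower. These were Cox5a at -0.45 (adjusted p = 0.045), Atp5l at -0.31 (adjusted p = 0.042), Ndufa5 at -0.30 (adjusted p = 0.044), Ndufa13 at -0.28 (adjusted p = 0.049) and Cox7a2l at -0.28 (adjusted p = 0.039). Cox5b was at -0.48 and did not pass (adjusted p = 0.12). By complex, the medians with the trend removed were -0.11 for complex I, -0.12 for complex II, -0.17 for complex III with cytochrome c, -0.17 for complex IV and -0.13 for complex V.

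**Figure D4:**
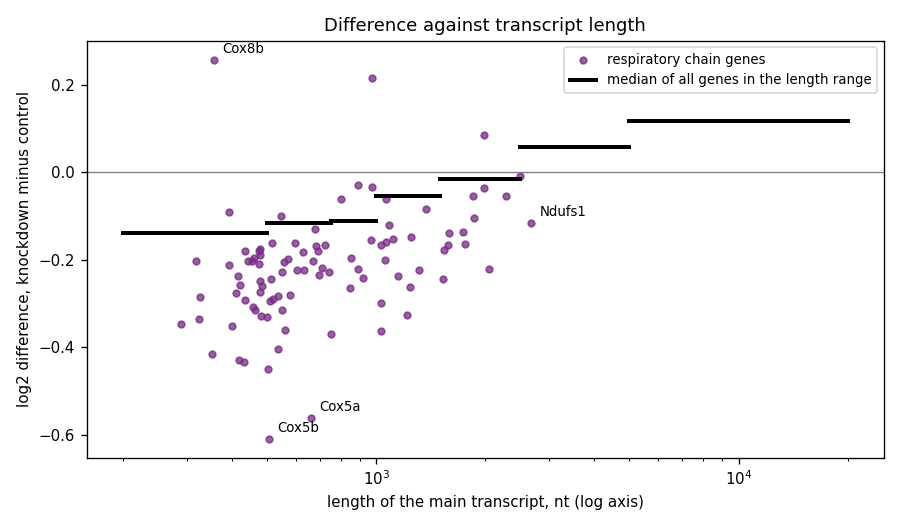
Log2 difference (knockdown minus control) of the 96 respiratory chain genes against the length of the main transcript (log axis), with black bars at the median of all genes tested in each length range. The bars climb from -0.14 up to 500 nt to 0.12 over 5000 nt, and most respiratory chain genes lie below the bar of their range.

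Genes that work beside the nuclear subunits were described the same way. Of all 15975 genes tested, 7869 had log2 differences below 0, and 1.2% were called lower at an adjusted p below 0.05. The 13 subunits encoded by mitochondrial DNA had a median log2 difference of -0.05, and 0 of them passed. At an unadjusted p below 0.05, 2 (15.4%) were lower, against 11.5% of all genes tested. With the length trend removed their median was 0.04. COX1, the catalytic subunit of complex IV, had 11290, 11960 and 11860 CPM in knockdown libraries, against 12280, 12050 and 12330 CPM in control libraries, a log2 difference of -0.06 (SE 0.051, adjusted p = 0.50). The groups did not overlap, by a small margin. The list of respiratory chain assembly genes outside the Nduf names, which also holds the ATP synthase inhibitor Atpif1, matched 37 symbols in 40 models. Of these 40 models, 32 were below 0 and 1 fell. That gene was Lyrm7, which stabilises the Rieske protein before it enters complex III, at 6.41, 6.86 and 6.96 CPM in knockdown libraries, against 9.78, 9.84 and 10.4 CPM in control libraries. The groups did not overlap, and the log2 difference was -0.57 (SE 0.067, adjusted p = 0.042).

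Of 21 genes of the tricarboxylic acid cycle and of pyruvate entry, 19 were below 0 with a median of -0.15. At an unadjusted p below 0.05, 12 (57.1%) were lower, against 11.5% of all genes tested. In all 3 batches 16 (76.2%) were lower, against 24.3% of all genes tested. At an adjusted p below 0.05, 2 fell, where 1.2% of all genes tested were called lower. Mpc1, a subunit of the mitochondrial pyruvate carrier, had 40.7, 23.2 and 46.0 CPM in knockdown libraries, against 59.1, 33.5 and 68.3 CPM in control libraries, a log2 difference of -0.55 (SE 0.048, adjusted p = 0.036). Fh, fumarate hydratase, fell by 0.31 on the log2 scale (SE 0.046, adjusted p = 0.048). Etfa, which passes electrons from fatty acid oxidation to ubiquinone, fell by 0.30 on the log2 scale (SE 0.045, adjusted p = 0.049). It was the 1 called of 44 other mitochondrial models tested, which stand for 43 symbols (37 below 0, median -0.09). None of Lyrm7, Mpc1, Fh and Etfa passed without batch 1, without batch 2 or without batch 3, where Mpc1 had adjusted p-values of 0.17, 0.16 and 0.051. Among 17 regulators of mitochondrial biogenesis, the median was -0.03 and 0 passed. At an unadjusted p below 0.05, 4 (23.5%) were lower, against 11.5% of all genes tested, and 1 was higher. Ppargc1a, the coactivator of respiratory genes, had 32.9, 31.6 and 32.2 CPM in knockdown libraries, against 49.9, 35.6 and 40.1 CPM in control libraries. The groups did not overlap, and the log2 difference was -0.37 (SE 0.09, adjusted p = 0.10). It passed with the length trend removed, at -0.49 (adjusted p = 0.040). Gabpb1, a subunit of GABP that was picked with its values in view, had 10.6, 12.3 and 11.4 CPM in knockdown libraries, against 8.61, 9.53 and 9.62 CPM in control libraries. It was higher in 3 of 3 batches and the groups did not overlap, with a log2 difference of 0.30 (SE 0.063, adjusted p = 0.081). Gabpa, another subunit of GABP picked in the same way, went the other way, at -0.38 (SE 0.13, adjusted p = 0.17). Its batch differences were -0.72, -0.34 and -0.07. Esrra, also picked with its values in view, was at -0.26 (SE 0.059, adjusted p = 0.095) and lower in 3 of 3 batches. Nrf1 was at 0.02 (SE 0.053, adjusted p = 0.85) and Tfam, which packages mitochondrial DNA, at -0.10 (SE 0.045, adjusted p = 0.25).

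Other gene sets were taken by name prefix after the results were seen. A prefix can take in copies and genes for other proteins, and what each model encodes was not checked. The 146 tested models with Rpl or Rps names, the prefixes of cytosolic ribosomal proteins, had a median log2 difference of -0.18. It was -0.12 for 77 with Mrpl or Mrps names (mitochondrial ribosomal proteins) and -0.09 for 40 with Psma to Psmd names (proteasome subunits). With the length trend removed these medians were -0.06, -0.05 and -0.04, against -0.11 for the 96 respiratory chain genes. Among the lists above, the median in that fit was -0.12 for the 21 tricarboxylic acid cycle and pyruvate entry genes, of which 20 were below 0. For the 40 models of the assembly list outside the Nduf names it was -0.11 (30 below 0), and for the 44 other mitochondrial models -0.07 (35 below 0). The respiratory chain value was thus near those of the tricarboxylic acid cycle and assembly lists. The 13 subunits encoded by mitochondrial DNA were at 0.04 in that fit, with 10 above 0. No test of these differences was made.

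Markers of other cells also differed between the groups, though not alike in all batches. Of all 15975 genes tested, 8106 were above 0 and 7869 below 0, with 82 called higher and 192 lower. Of 16 acinar symbols, 17 models were tested and 16 were below 0 (median -0.39), with Ctrb1 called lower. The list summed to between 219 and 591 CPM in knockdown libraries and between 309.9 and 783 CPM in control libraries. Stellate and fibroblast markers, 11 tested and 9 above 0, had Col3a1 and Col5a1 called higher. They summed to between 135 and 171 CPM in knockdown libraries and between 57.6 and 131 CPM in control libraries. Their median differences in batches 1, 2 and 3 were 0.80, 1.06 and -0.007, and 6 of the 11 were lower in the knockdown library of batch 3. Immune markers, 11 tested and 9 above 0, had Lyz2 called higher and C1qa lower. They summed to between 17.6 and 30.0 CPM in knockdown libraries and between 18.6 and 22.2 CPM in control libraries. This sum was higher in the knockdown library of batches 1 and 2 and lower in that of batch 3 (17.6 against 18.6 CPM). Other islet endocrine markers (9 tested, 8 above 0, median 0.16), duct markers (5 tested, median 0.31) and endothelial markers (5 tested, median -0.17) had no call. The islet endocrine list, which marks other islet hormone cells, summed to 7698, 14650 and 10800 CPM in knockdown libraries, against 5745, 13960 and 8695 CPM in control libraries, higher in the knockdown library of each batch. With the length trend removed Gcg, which encodes glucagon, passed at 0.37 (adjusted p = 0.044), and Krt7 of the duct list passed at 0.36 (adjusted p = 0.042). In that fit 161 of all genes tested were called higher and 419 lower. The 16 tested beta cell markers had a median of -0.05 and no call. Ghrl alone among these lists was at 0 in every library. The part of these cells in the respiratory chain difference was not tested.

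Because Nova1 regulates splicing, the division of each gene's RNA among its transcripts was compared too. Of the 101 models, 46 had at least 2 transcripts and 42 could be tested. None changed its transcript use at an adjusted p below 0.05 in limma's diffSplice, where 0.702% of 9538 genes tested did. At an unadjusted p below 0.05 there were 10 (23.8%), against 12.2% of all genes tested. The smallest adjusted p was that of Atp5a1 (0.066). Its 1668-nt transcript differs from the main 1735-nt transcript at both ends and has an internal exon of 146 nt in place of 151 nt. It held 5.53%, 5.42% and 6.16% of the gene's RPKM in knockdown libraries, against 21.5%, 13.4% and 10.9% in control libraries. The groups did not overlap, and the transcript's own adjusted p was 0.051.

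Uqcrc2, Sdhc, Sdha and Ndufa8 were among the genes of at least 10 RPKM with the largest changes of a mean share. The 1093-nt transcript of Sdhc, which lacks an internal exon of 62 nt, held 39.1%, 76.1% and 34.9% in knockdown libraries, against 20.4%, 45.8% and 25.7% in control libraries. It was higher in the knockdown library of each batch, but the groups overlapped (adjusted p = 0.19 for the gene). The 2918-nt transcript of Sdha was listed at 0 in all 3 knockdown libraries and held 19.6%, 19.3% and 8.08% in control libraries (adjusted p = 0.39 for the gene), and an estimate of 0 among near-identical transcripts can be a failed estimate. For Uqcrc2 the change came from control library 2, where the main transcript held 10.9%, against 85.3% to 96.1% in the other 5 libraries. The 807-nt transcript of Ndufa8 held 27.1%, 20.7% and 34.3% in knockdown libraries, against 47.1%, 44.4% and 33.8% in control libraries, and its gene had an adjusted p of 0.65.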

How the data were processed

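Poly(A) RNA of sorted rat beta cells was sequenced in 6 libraries, grouped and numbered by batch from their titles. TopHat and the assembly Rnor_5.0 are named by the submitters' processing notes. The program that divided reads among transcripts is not given in the sources used here. For each of 60887 transcripts the authors deposited an estimated read count and an RPKM value per library, as attribute text beside other fields. Both were summed here by locus and gene name. Between 95394043 and 292432076 reads were assigned per library, and this number and the 3 batches limit precision.

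Library sizes were scaled by the trimmed mean of M values, and reads divided by them are given as CPM. Genes needed 10 reads, scaled to the library of median depth, in 3 libraries and 15 in all. A voom model of limma 3.58.1 (R 4.3.3) was fitted to all 15975 genes with batch as a block, with Benjamini-Hochberg adjustment at 0.05. Because reads are held as attribute text, no count model was used. Transcript use was tested with diffSplice and a Simes p per gene. Scripts were tested on simulated data. The batch number pairs the libraries by design: deviations from group means correlated at 0.376, 0.723 and 0.555 within batches 1, 2 and 3.

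The genes and lists were chosen with earlier results of these data known. Genes are named where called, where lowest, highest or most abundant in their complex (2 each, at least 10 RPKM for the differences), where they belong to tissue forms or a fixed set, or where a transcript share changed most (5 genes); any other gene was picked with its values in view. A gene that this rule takes is not reported here. Alternatives were no block, each batch left out, median of ratios scaling, library totals, no filter or a stricter filter, limma-trend on log2(RPKM + 1) or log2(RPKM + 0.1), and removal of a lowess trend on transcript length, which earlier results had shown. Sequences are from RefSeq on GRCr8, matched by symbol.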

Additional observations from a re-analysis of the deposited data

How the results depend on the processing

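The median log2 difference of the 96 respiratory chain genes stayed below 0 under each of 11 alternatives and with genes with introns alone (-0.22), between -0.29 and -0.11. By complex it ran from -0.29 to -0.11 (I), -0.15 to -0.04 (I assembly factors), -0.24 to -0.12 (II), -0.27 to -0.17 (III with cytochrome c), -0.41 to -0.13 (IV) and -0.34 to -0.13 (V). The counts of calls did not hold. With no batch block, 0 of 15975 genes and 0 respiratory chain genes passed, against 274 genes and 1 respiratory chain gene with it, and the unadjusted count was 521 genes. The median of the respiratory chain genes without the block was -0.22. With a batch left out, 0 to 82 genes and 0 to 2 respiratory chain genes were called. With library totals 91 genes and 0 respiratory chain genes were called, and with the stricter filter 120 genes. Limma-trend on log2(RPKM + 1) or log2(RPKM + 0.1) called 0 genes and 0 respiratory chain genes, with 3192 and 3111 genes at an unadjusted p below 0.05. With the length trend removed 580 genes and 5 respiratory chain genes were called. Changed transcript use was called in 1 of 40 respiratory chain genes without batch 1 (Sdha), 1 of 44 without batch 2 (Atp5s), 1 of 40 without batch 3 (Atp5a1) and 1 of 45 without a filter (Atp5s). In the same settings it was called in 3.24%, 2.89%, 3.34% and 1.20% of all genes tested, or 314, 280, 323 and 130 genes.

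Values that turned in direction were small. Ndufa10 ranged from -0.0687 to 0.0204 with a batch left out, and was at 0.0166 with library totals, 0.0492 on log2(RPKM + 1) and 0.0504 on log2(RPKM + 0.1). Ndufaf7 was at 0.0216, 0.117 and 0.129 with library totals and on these scales, and at 0.0508 with the length trend removed. Sdha was at 0.0025, 0.0073 and 0.0073 with library totals and on these scales. Ndufaf3 ranged from -0.193 to 0.0490 and Nrf1 from -0.0061 to 0.0421 with a batch left out. With the length trend removed Ndufa8 was at 0.0302, Atp5f1 at 0.0189 and Nrf1 at -0.0026, and Nrf1 was at -0.0043 and -0.0046 on the RPKM scales. The median of the 3 genes named by prefix only ranged from -0.0807 to 0.0232 with a batch left out, and was 0.0240 with library totals, 0.0017 and 0.0023 on the RPKM scales and 0.0603 with the length trend removed. Medians of other lists turned to 0.0035 (mitochondrial genome, library totals), 0.0431 (mitochondrial genome, length trend removed), 0.0228 (biogenesis regulators, library totals) and 0.0059 (beta cell, library totals). The cause was not tested.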
